A study of Homo sapiens with 6 samples.

Results

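Some open chromatin regions lie across the starts of more than 1 gene. In ATAC-seq of A375 cells, an established human melanoma line, such regions were taken as those that the authors' deposited tables list at distance 0 from 2 or more different gene names. This rule uses position only and no measured accessibility. It chose 779 of the 226920 regions found in any of the 3 comparison tables, and 777 of them were in all 3. The comparison set was the 9178 regions at distance 0 from 1 gene name. The 3 groups had 2 libraries each: mock cells, cells exposed to recombinant HMGA1 for 2 h, and cells exposed to it for 18 h. HMGA1 is a chromatin protein with AT hooks, which grip the narrow groove of AT-rich DNA. The labels speak of biological replicates and name no separate cultures, and the p-values therefore cover only the spread of these 6 libraries, which may be technical. All groups share 1 cell line, and the mock cells are the only control. The tables give 1 estimate per region and comparison, so values of single libraries were not analysed here.

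A pair of genes that start close together on opposite strands is called a bidirectional gene pair, and the stretch between the starts serves as promoter for both. In mammals such promoters usually lie in CpG islands, lack a TATA box and belong to genes that most cells use, among them genes for DNA repair, mitochondrial proteins, ribosomes and chaperones. Within such a stretch the DNA is kept free of nucleosomes, so that the Tn5 transposase of ATAC-seq, which inserts adapters into open DNA, reads it as 1 peak. Other regions cover a pair of starts on the same strand, often a gene and a readthrough transcript that begins at the same place. In each case the region has 1 value, and the genes that share it cannot be told apart by it.

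The promoter sequences below are those of regions named further on, none of which had an adjusted p under 0.05 (DESeq2) in any comparison. LRRC28/TTC23, SNRNP40/ZCCHC17 and LRSAM1/RPL12 were among those with the smallest p-values. CXCL14/SLC25A48 and COL4A1/COL4A2 lay above 0 at 2 h in the deposited values, with 95% intervals that included 0. PAICS/PPAT is a textbook bidirectional pair. Each run of 300 bases is from RefSeq (GRCh38.p14), 250 bases before to 50 after the start of the gene named first, 5′ to 3′ on that gene's strand, so that its start is at base 251. Capitals mark matches, on either strand, to the motifs spelled out further on.
LRRC28, chr15:99251231-99251530, plus strand: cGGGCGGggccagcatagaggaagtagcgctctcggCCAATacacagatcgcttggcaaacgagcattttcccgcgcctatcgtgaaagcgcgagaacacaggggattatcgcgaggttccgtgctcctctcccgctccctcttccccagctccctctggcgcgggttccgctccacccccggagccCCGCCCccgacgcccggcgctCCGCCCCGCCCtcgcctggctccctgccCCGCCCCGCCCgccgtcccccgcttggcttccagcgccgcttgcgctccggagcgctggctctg
SNRNP40, chr1:31296739-31297038, minus strand: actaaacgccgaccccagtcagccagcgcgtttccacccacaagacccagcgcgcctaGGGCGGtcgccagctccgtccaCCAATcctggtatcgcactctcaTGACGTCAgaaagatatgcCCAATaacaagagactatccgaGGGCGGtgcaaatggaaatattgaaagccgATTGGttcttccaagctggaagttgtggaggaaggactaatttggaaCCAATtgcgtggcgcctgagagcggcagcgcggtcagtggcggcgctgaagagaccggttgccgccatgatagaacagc
RPL12, chr9:127451357-127451656, minus strand: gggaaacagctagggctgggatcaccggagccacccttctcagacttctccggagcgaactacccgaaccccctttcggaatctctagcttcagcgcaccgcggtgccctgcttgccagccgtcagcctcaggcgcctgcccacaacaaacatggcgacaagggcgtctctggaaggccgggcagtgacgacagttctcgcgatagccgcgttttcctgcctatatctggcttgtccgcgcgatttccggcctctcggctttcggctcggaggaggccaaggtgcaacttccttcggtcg
CXCL14, chr5:135578942-135579241, minus strand: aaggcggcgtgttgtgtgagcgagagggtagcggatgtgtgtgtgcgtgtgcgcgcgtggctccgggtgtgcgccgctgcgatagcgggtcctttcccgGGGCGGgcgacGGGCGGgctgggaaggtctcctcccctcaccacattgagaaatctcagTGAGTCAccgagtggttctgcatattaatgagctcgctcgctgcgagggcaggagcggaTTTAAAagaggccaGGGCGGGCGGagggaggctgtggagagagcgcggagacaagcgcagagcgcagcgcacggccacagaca
COL4A1, chr13:110307108-110307407, minus strand: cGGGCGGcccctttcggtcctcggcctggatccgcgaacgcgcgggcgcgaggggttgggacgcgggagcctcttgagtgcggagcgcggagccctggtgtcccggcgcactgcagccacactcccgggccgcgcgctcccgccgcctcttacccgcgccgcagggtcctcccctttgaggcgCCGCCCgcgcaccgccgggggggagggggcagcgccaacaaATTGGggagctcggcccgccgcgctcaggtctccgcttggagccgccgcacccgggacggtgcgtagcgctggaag
PAICS, chr4:56435502-56435801, plus strand: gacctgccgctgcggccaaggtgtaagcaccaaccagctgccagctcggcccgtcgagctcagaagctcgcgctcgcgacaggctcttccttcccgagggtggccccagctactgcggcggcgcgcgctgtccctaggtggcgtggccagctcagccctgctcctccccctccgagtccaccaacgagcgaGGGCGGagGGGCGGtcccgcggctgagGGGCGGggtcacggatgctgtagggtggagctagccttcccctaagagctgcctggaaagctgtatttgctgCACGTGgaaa

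In all 6 runs the partner gene reads on the opposite strand. The start of ZCCHC17 is at base 7 of the SNRNP40 run, that of LRSAM1 at base 171 of the RPL12 run, that of SLC25A48 at base 70 of the CXCL14 run, that of COL4A2 at base 124 of the COL4A1 run and that of PPAT at base 114 of the PAICS run. The start of TTC23 lies just outside the LRRC28 run. The LRRC28 run held 6 GC boxes and 1 CCAAT box, with GC boxes at 63, 42, 37, 14 and 9 bases before the start. The SNRNP40 run held 4 CCAAT boxes, 2 GC boxes and 1 CRE, and its GC content of 56.7% was the lowest of the 6. The RPL12 run held no match to any of these motifs. The CXCL14 run held GC boxes at 151, 140, 19 and 15 bases before the start. It also held an AP-1 match 92 bases and a TTTAAA run 33 bases before the start. The COL4A1 run, at 76.7% GC the richest of the 6, held 2 GC boxes and 1 CCAAT box, and the PAICS run 3 GC boxes and an E-box 40 bases after the start.

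The same search was made over the 1099 promoters of two-start regions in the RefSeq table, the 6299 of single-start regions and all 35114 promoters of 300 bases. The letters searched on both strands were those of the TATA box (TATAAA), the box bound by NF-Y (CCAAT), and the GC box bound by SP1 (GGGCGG), then CCGGAAG (ETS core), GCATGCGC (NRF1), AAGATGGCG (YY1), CTCGCGAG (ZBTB33), CACGTG (E-box), TGACGTCA (CRE), TGACGT (CRE core, which every CRE match holds), TGANTCA (AP-1), AAATTT and TTTAAA. The ETS core, the site read by the ETS family of activators, was in 33.0% of the two-start promoters, 18.3% of the single-start promoters and 10.3% of all promoters. The YY1 letters were in 6.92%, 3.71% and 1.75% of them, and the NRF1 letters, read by a factor of nuclear genes for mitochondria, in 8.01%, 5.43% and 3.05%. The order ran the other way for the TATA box, with 3.18%, 5.24% and 11.5%, and for AP-1, with 2.82%, 5.37% and 7.71%. CCAAT boxes stood at 44.0%, 38.1% and 34.6%, and GC boxes at 74.0%, 72.6% and 45.0%. The AT-only letters AAATTT and TTTAAA were in 2.91% and 3.82% of the two-start promoters, 3.37% and 7.60% of the single-start promoters and 7.52% and 12.2% of all promoters. The median GC content was 65.0% at two-start, 65.7% at single-start and 58.7% at all promoters, and the median ratio of observed to expected CpG was 0.89, 0.83 and 0.58. A match is a description of the letters in these windows, and both promoters of a pair overlap, so the promoters are not independent.

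**Figure D1:**
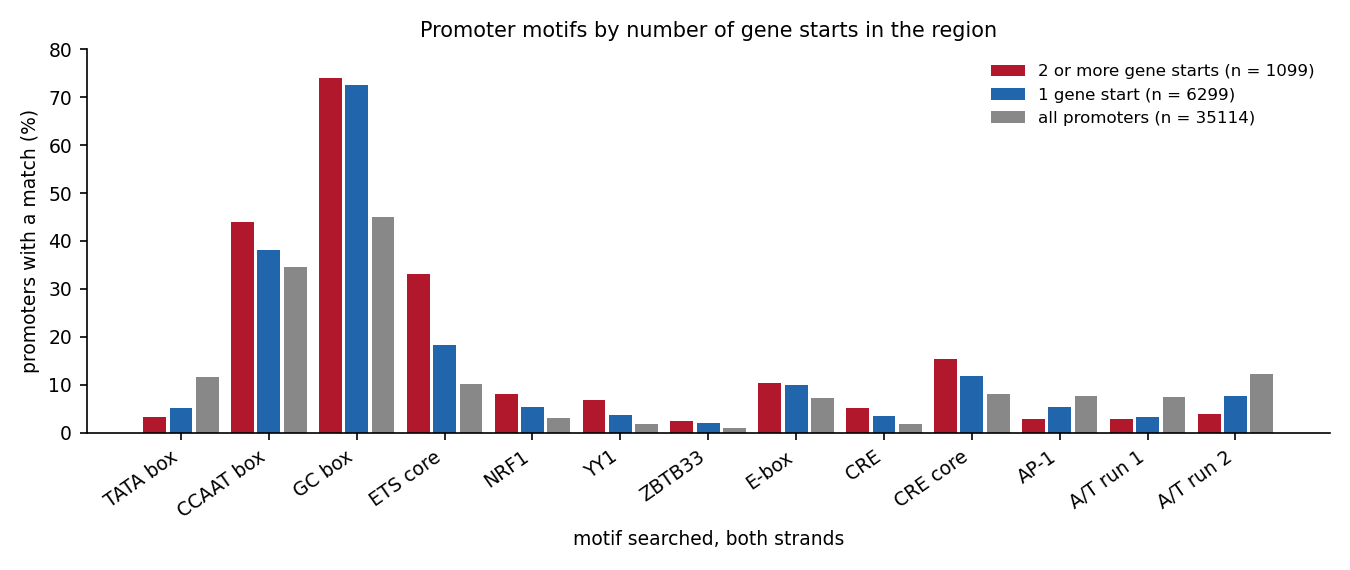
Share of promoters with a match to each motif (y axis, percent) for the promoters of two-start regions, of single-start regions and all promoters of the RefSeq table. The ETS core is in 33.0% of two-start promoters against 10.3% of all promoters, and the TATA box in 3.18% against 11.5%; A/T run 1 and A/T run 2 are AAATTT and TTTAAA.

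The 779 regions carried 1588 gene names, and no name was at more than 1 of them. Of the regions, 749 had 2 names and 30 had 3. By symbol 1317 names matched RefSeq, a further 101 matched through an older name and 170 were not matched, and 1396 of the names belonged to protein-coding genes. The orientation of the starts could be placed for 518 regions. Most of these, 445, held a head-to-head pair, with a gap between the starts of 148 bases in the median (quartiles 91 and 232, range 1 to 471). The gap was 4 bases for BBIP1/SHOC2, where SHOC2 is a scaffold of the RAS pathway, and 471 bases for CREB3/TLN1, where TLN1 encodes the integrin-linked protein talin. Both pairs were picked after their values were seen. Starts on the same strand made up 55 regions, overlapping 5′ ends 15, and 3 regions had 3 placed starts. In the remaining 261 regions fewer starts were found inside the region, as for the chaperonin pair HSPD1/HSPE1. By name, 576 regions had gene symbols only, 155 had at least 1 clone or non-coding name, and 48 had a readthrough name such as RPL36A-HNRNPH2. Just outside the rule lay 47 regions with 2 names within 100 bases, 44 of them with 1 start at distance 0.

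Two-start regions were strongly accessible. Their mean signal, the authors' average over the 6 libraries of reads per region after scaling, was 532 in the median (quartiles 364 and 765, highest 1741), against 363 at single-start regions and 39.3 over all regions of the 2 h table. The highest values were 1741 at CAB39L/SETDB2, whose second name encodes a histone methyltransferase, 1693 at C8orf44/SGK3/VCPIP1, which holds a kinase and a deubiquitinase gene, and 1630 at SWT1/TRMT1L. CNST/TFB2M, with the gene of a mitochondrial transcription factor, stood at 1522. Above the low-signal limit of the authors' deposited tables, and so tested, were 757 two-start regions (97.3%) at 2 h against mock, 752 (96.7%) at 18 h against mock and 759 (97.7%) at 18 h against 2 h. The corresponding shares were 86.9%, 81.3% and 89.5% of single-start regions and 38.0%, 24.4% and 47.7% of all regions.

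At 2 h against mock, 21 two-start regions lay below the limit, with mean signals from 0.870 to 44.1, and 1 further region was not listed for that comparison. Genes used in few tissues were among them, picked here after their values were seen. HBE1/HBG2, globin genes of the embryo and fetus, had a mean signal of 28.4, DUOX2/DUOXA2, which make hydrogen peroxide in the thyroid, 37.4, and the olfactory receptor pair OR7A5/OR7C1 44.1. LHCGR, which encodes the receptor of luteinizing hormone, had 19.5 and KLRC4/KLRC4-KLRK1, of natural killer cells, 35.6. Near the limit the standard errors were wide: in the authors' deposited table HBE1/HBG2 had a log2 fold change of -0.98 ± 0.49 (SE) at 2 h with no adjusted test.

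The melanoma label was checked against gene starts, since the tables hold accessibility and not expression. A region at the start was listed for 4 of 8 melanocyte genes and for none of MLANA, TYR, TYRP1 and DCT. Those listed were MITF (mean signal 694, percentile 83.1 among start regions), S100B (353, 46.8), PMEL (298, 39.1) and SOX10 (63.8, 13.3). Of the markers of other cell types, EPCAM (mean signal 200, percentile 27.4) and PDGFRB (448, 59.2) had such a region. PTPRC, CD3E, KRT5, KRT14, PECAM1, CDH5 and COL1A1 had none. PDGFRB thus stood above S100B, PMEL and SOX10, and EPCAM above SOX10. The depth of each library is unknown. The 3 comparisons came from 1 fit, so that the log2 fold change of 18 h against 2 h equals the difference of the other two, and all 3 share libraries.

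Early differences were read from 2 h against mock. No two-start region passed the threshold: in the authors' deposited table the number with an adjusted p under 0.05 was 0 of 757 (DESeq2), where 1.28% of all tested regions passed, 0.856% as higher and 0.421% as lower. At an unadjusted p under 0.05, 67 two-start regions (8.85%) were lower and 0 higher. Of the tested single-start regions 6.99% were lower and 0.251% higher, and of all tested regions 5.68% and 4.33%. The log2 fold change was below 0 at 715 regions (94.5%), with a median of -0.11, a 5 to 95% range of -0.25 to 0.00 and extremes of -0.41 and 0.29. Single-start regions had the same median, -0.11, with 88.6% below 0 and with 3 regions called higher and 6 lower of 7970, while the median over all regions was -0.06.

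Where the values lay relative to 0 depended on how the fold changes were centred. The share of two-start regions below 0 at 2 h was 75.3% with the median tested region set to 0, 58.4% when centred inside 20 bins of mean signal and 47.7% with the median single-start region set to 0. The counts at an unadjusted p under 0.05 were then 14 lower and 1 higher, 5 and 2, and 1 and 2. Shares over single-start or all tested regions were not worked out under these centrings. The last of these shifts every value by 0.11, and the two-start median then stood at 0.00. In the middle range of two-start signal (374 to 774) the medians were -0.11 for 379 two-start regions, -0.12 for 3413 single-start regions and -0.10 for all 12073 regions. In that band 0 of the two-start regions, 3 of the single-start regions and 247 of all regions were called. The spread of the log2 fold changes there was 0.07 (SD across regions) at two-start, 0.08 at single-start and 0.15 at all regions.

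**Figure D2:**
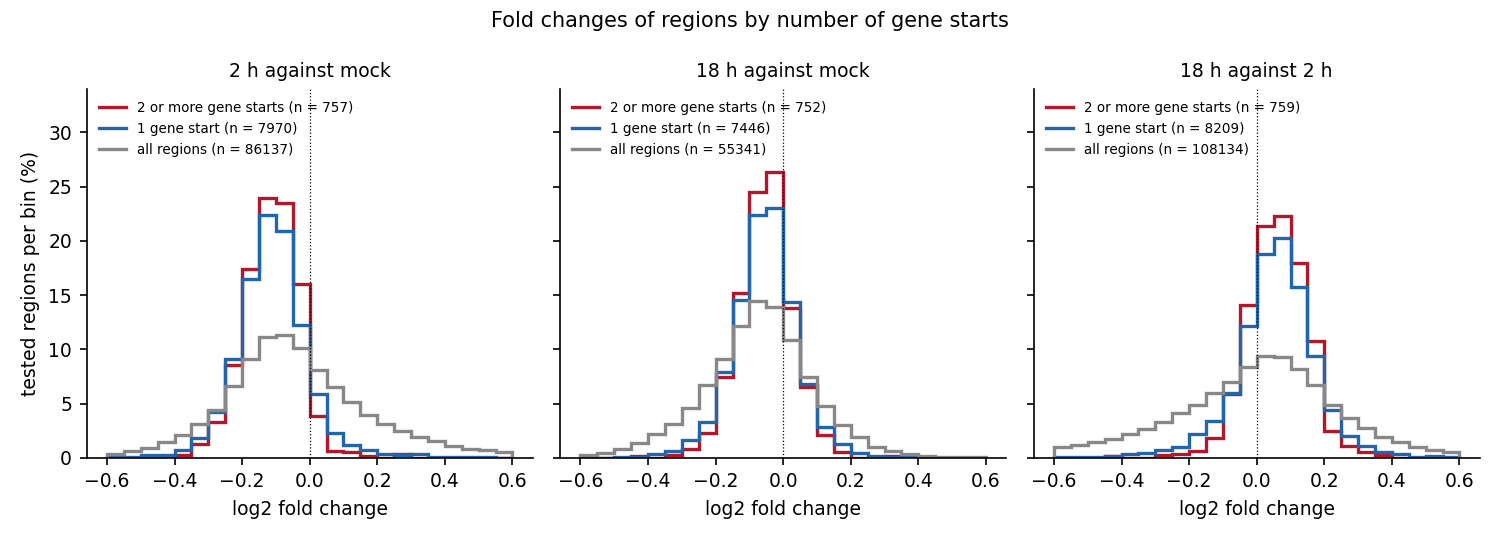
Distribution of the authors' log2 fold change (x axis, bins of 0.05; y axis, percent of tested regions per bin) for two-start, single-start and all regions in the 3 comparisons. Two-start and single-start regions peak at the same place, with medians of -0.11, -0.05 and 0.06, and all regions are spread more widely; regions beyond 0.6 in either direction are not drawn.

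The smallest p at 2 h belonged to the region of LRRC28 and TTC23 (chr15:99251112-99251613, hg38), head to head with 256 bases between the starts. LRRC28 encodes a leucine-rich repeat protein and TTC23 a protein of the cilium. Its mean signal was 725, and the authors' deposited table gave a log2 fold change of -0.31 ± 0.09 (SE; 95% interval -0.50 to -0.13, 1.24-fold lower; adjusted p = 0.0596, DESeq2). SNRNP40/ZCCHC17 (chr1:31296659-31297160), with the gene of a U5 snRNP protein of the spliceosome, had -0.28 ± 0.09 (adjusted p = 0.0814) in the authors' deposited table. These 2 were the only two-start regions with an adjusted p under 0.1 at 2 h. Both lost this under every other centring tried, where the smallest adjusted p of any two-start region was 0.199, 0.353 and 0.222.

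The next 8 regions by p at 2 h also lay below 0. The authors' deposited table gave -0.33 ± 0.11 for LRSAM1/RPL12 (adjusted p = 0.149), which hold a ubiquitin ligase gene and a gene of the large ribosomal subunit. FAM63A/PRUNE had -0.34 ± 0.12 (adjusted p = 0.150) and ANKIB1/KRIT1, where KRIT1 is mutated in cerebral cavernous malformations, -0.31 ± 0.11 (adjusted p = 0.194) in the authors' deposited table. CBY1/FAM227A, with the gene of the beta-catenin antagonist Chibby, had the lowest value, -0.41 ± 0.15, at a mean signal of 242, in the authors' deposited table. For SNX21/TNNC2, KIAA0753/TXNDC17, CCBL2/RBMXL1 and PFKFB2/YOD1 the authors' deposited table gave -0.25 ± 0.09, -0.27 ± 0.10, -0.24 ± 0.09 and -0.23 ± 0.09. PFKFB2 encodes an enzyme that sets the level of a glycolysis activator and YOD1 a deubiquitinase. All 8 intervals lay below 0 before adjustment and all had an adjusted p between 0.149 and 0.222.

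Few two-start regions lay above 0 at 2 h. CXCL14/SLC25A48 (chr5:135578828-135579329), with a chemokine gene and a mitochondrial carrier gene, had 0.29 ± 0.16 (adjusted p = 0.583) at a mean signal of 211 in the authors' deposited table. HCFC1R1/THOC6 had 0.11 ± 0.09 (adjusted p = 0.759) at a mean signal of 1138, and the type IV collagen pair COL4A1/COL4A2 (chr13:110306878-110307379) 0.07 ± 0.12 (adjusted p = 0.935), in the authors' deposited table. C19orf45/PEX11G, with a peroxisome gene, had 0.29 ± 0.31 at a mean signal of 63.9. The 95% intervals of all 4 included 0.

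**Figure D3:**
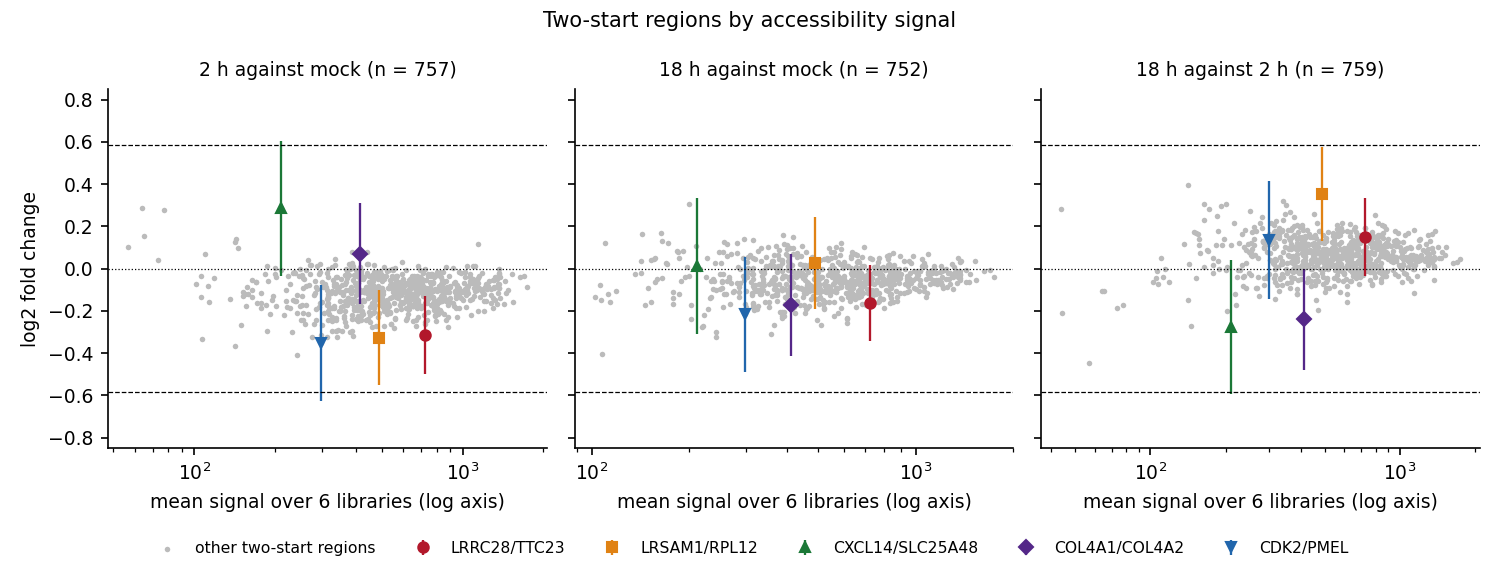
Log2 fold change (y axis) against mean signal over the 6 libraries (x axis, log scale) for the tested two-start regions in the 3 comparisons, with 5 regions marked and their 95% intervals drawn; dashed lines mark 1.5-fold in either direction. At 2 h 715 of 757 points lie below 0, and no point in any panel reaches the dashed lines.

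Differences after the longer exposure were read from 18 h against mock. In the authors' deposited table the number of two-start regions called was 0 of 752 (DESeq2, adjusted p under 0.05), against 0.121% of all tested regions, 0.00542% as higher and 0.116% as lower. Of 7446 tested single-start regions 0 were called. At an unadjusted p under 0.05, 11 two-start regions (1.46%) were lower and 0 higher. Of the tested single-start regions 1.76% were lower and 0.0940% higher, and of all tested regions 7.32% and 0.569%. The median was -0.05 at two-start and at single-start regions and -0.07 over all regions, and 76.9% of the two-start regions lay below 0. This share was 40.0% with the median tested region set to 0, 39.4% within bins of mean signal and 48.7% with the median single-start region set to 0, so that the two-start median changed its sign.

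The smallest p at 18 h was that of EFL1/FAM154B (chr15:82262444-82262945), where EFL1 is a GTPase that acts late in the making of the large ribosomal subunit. Its log2 fold change in the authors' deposited table was -0.26 ± 0.10 (SE, with an adjusted p = 0.407), and -0.14 ± 0.10 at 2 h. PPHLN1/ZCRB1, with genes for a silencing factor and a protein of the minor spliceosome, had -0.31 ± 0.13 (adjusted p = 0.462) at 18 h and -0.30 ± 0.13 at 2 h in the authors' deposited table. CEBPZ/NDUFAF7, with an assembly factor of complex I, had -0.23 ± 0.10 (adjusted p = 0.493), C17orf100/MED31, with a Mediator gene, -0.27 ± 0.12 and GORASP1/TTC21A, with a Golgi gene, -0.24 ± 0.11 at 18 h in the authors' deposited table. On the other side stood TIGD7/ZNF75A, which includes a zinc finger gene, at 0.31 ± 0.18 (adjusted p = 0.727), and ARL16/HGS, with an endosomal sorting gene, at 0.10 ± 0.10 in the authors' deposited table. The zinc finger genes belong to a large family of similar sequences, and whether reads at this region were shared with copies was not tested.

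How the longer exposure differed from the shorter one was read from 18 h against 2 h. In the authors' deposited table the number of two-start regions called was 0 of 759 (DESeq2, adjusted p under 0.05), against 3.48% of all tested regions, 0.498% as higher and 2.98% as lower. At an unadjusted p under 0.05, 21 two-start regions (2.77%) were higher and 0 lower. Of the tested single-start regions 2.56% were higher and 0.670% lower, and of all tested regions 3.44% and 8.18%. The median was 0.06 at two-start and at single-start regions and 0.01 over all regions, and 23.3% of the two-start regions lay below 0. This share was 27.0% with the median tested region set to 0, 34.7% within bins of mean signal and 49.4% with the median single-start region set to 0. The two-start median under these centrings was 0.05, 0.03 and 0.0017, and the unadjusted counts were 13 higher and 1 lower, 4 and 2, and 2 and 5. Of 8209 single-start regions, 12 were called higher and 11 lower. Within the middle range of two-start signal 0 of 379 two-start regions were called, 7 of 3416 single-start regions and 710 of all 12102.

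LRSAM1/RPL12 (chr9:127451177-127451678), with 80 bases between the starts, had the smallest p here. From 2 h to 18 h its log2 fold change was 0.35 ± 0.11 (SE; 95% interval 0.13 to 0.57, 1.28-fold higher; adjusted p = 0.0532, DESeq2) as the authors' deposited table gives it. Against mock it stood at -0.33 ± 0.11 at 2 h and at 0.03 ± 0.11 at 18 h in the authors' deposited table. It was the only two-start region with an adjusted p under 0.1 in this comparison, and its adjusted p was 0.0653 with the median tested region set to 0 and 0.0975 within bins of mean signal. Without the low-signal filter it was 0.106, and with the median single-start region set to 0 the smallest adjusted p of any two-start region was 0.142. SNX21/TNNC2, where TNNC2 encodes the troponin C of fast skeletal muscle, had 0.26 ± 0.09 (adjusted p = 0.103) in the authors' deposited table. BABAM1/CTD-2278I10.6, with a gene of the BRCA1-A complex, had 0.18 ± 0.07 (adjusted p = 0.210), and AIMP2/PMS2, with a scaffold of the tRNA synthetase complex and a mismatch repair gene, 0.21 ± 0.09 (adjusted p = 0.235) in the authors' deposited table. CCDC163P/MMACHC, with a gene of vitamin B12 use, had 0.21 ± 0.09, and GEMIN6/SRSF7, with genes of snRNP assembly and splicing, 0.19 ± 0.09 in the authors' deposited table. Below 0 lay COL4A1/COL4A2 at -0.24 ± 0.12 (adjusted p = 0.430) and CXCL14/SLC25A48 at -0.28 ± 0.16 (adjusted p = 0.572) in the authors' deposited table.

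**Figure D4:**
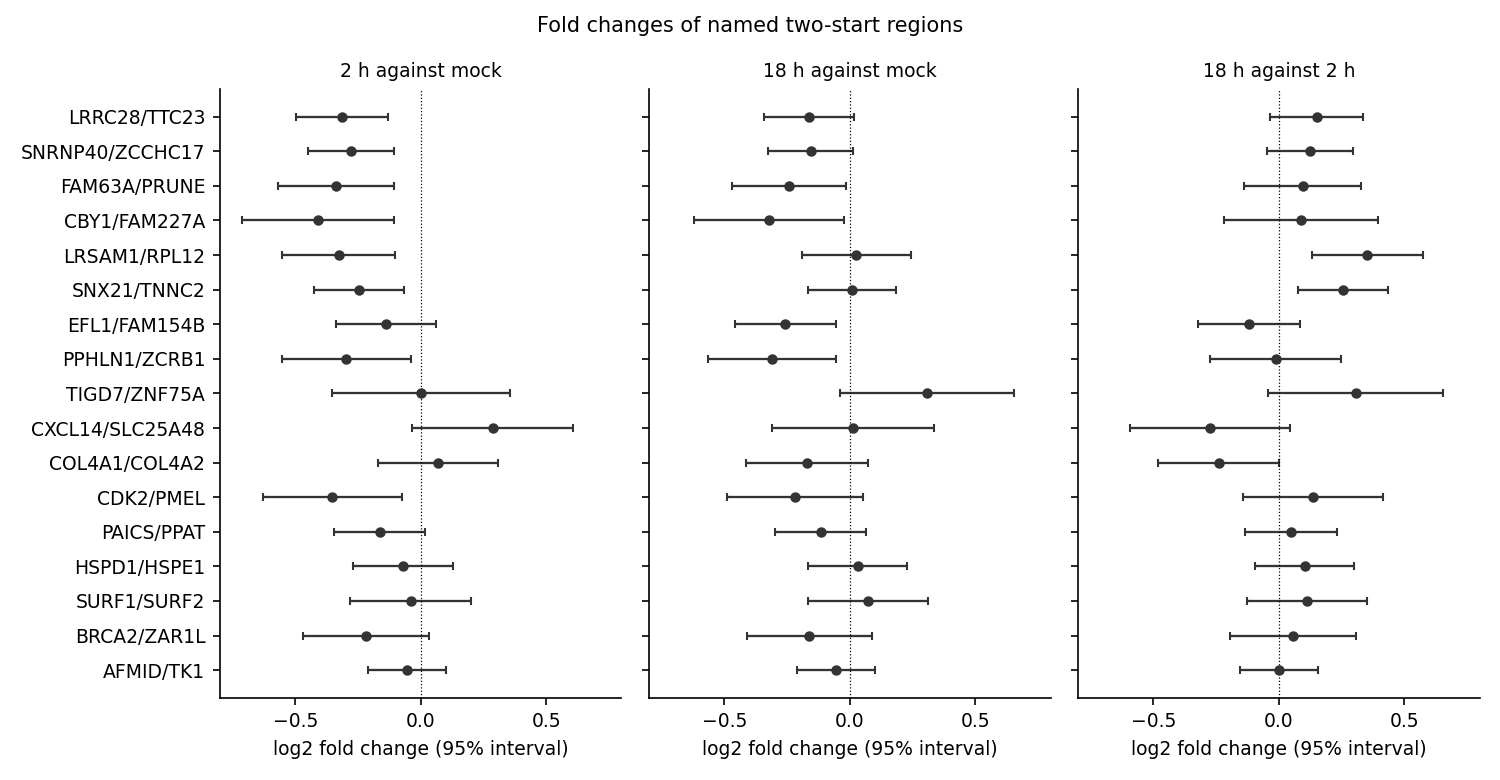
Log2 fold change (x axis) with its 95% interval for 17 named two-start regions (rows) in the 3 comparisons; points are the authors' estimates. LRSAM1/RPL12 lies at -0.33 at 2 h, at 0.03 at 18 h and at 0.35 between them, while CBY1/FAM227A lies below 0 at both times.

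Of the 40 genes on the list of textbook bidirectional pairs, 12 formed 6 pairs that each shared a two-start region, all tested. A list gene whose partner there was not on the list was not counted. In each comparison the 95% interval lay within 1.5-fold of no change for all 6 pairs and within 1.25-fold for 4. Called were 0 of 6 in each comparison. Over all tested regions 1.28%, 0.121% and 3.48% were called in the 3 comparisons, and the same shares stand beside every list below. PAICS/PPAT (chr4:56435401-56435902), which encode enzymes of purine synthesis, had -0.16 ± 0.09 at 2 h and -0.12 ± 0.09 at 18 h in the authors' deposited table. HSPD1/HSPE1, the mitochondrial chaperonin and its co-chaperonin, had -0.07 ± 0.10 and 0.03 ± 0.10, and SURF1/SURF2, of which SURF1 assembles cytochrome oxidase, -0.04 ± 0.12 and 0.07 ± 0.12 in the authors' deposited table. AFMID/TK1, where TK1 is thymidine kinase, had -0.06 ± 0.08 at both times in the authors' deposited table, with a 95% interval of -0.21 to 0.10. BRCA2/ZAR1L, of which BRCA2 acts in repair by recombination, had -0.22 ± 0.13 and -0.16 ± 0.13 in the authors' deposited table. COL4A1/COL4A2 had 0.07 ± 0.12 and -0.17 ± 0.12 there. At an unadjusted p under 0.05, 0 of 6 were lower and 0 higher in each comparison as deposited. At 18 h against 2 h the count of lower pairs rose to 1, COL4A1/COL4A2, under each of the 3 other centrings. As deposited, 8.18% of all tested regions were lower in that comparison. The medians of the 6 pairs were -0.06, -0.09 and 0.05 in the 3 comparisons.

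Genes of DNA repair and replication were at 19 two-start regions, all tested. Called were 0 of 19 in each comparison, and at an unadjusted p under 0.05 there were 0 at 2 h and 0 at 18 h. At 18 h against 2 h 1 was higher (AIMP2/PMS2), where 3.44% of all tested regions were. This count was 1 with the median tested region set to 0. It was 0 within bins of mean signal and with the median single-start region set to 0. Their medians were -0.11, -0.07 and 0.04, beside -0.11, -0.05 and 0.06 over all tested two-start regions. DESI1/XRCC6, where XRCC6 encodes the Ku70 subunit of end joining, had -0.22 ± 0.12 at 2 h and -0.04 ± 0.12 at 18 h in the authors' deposited table.

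The mitochondrial ribosome, which makes the proteins encoded in mitochondrial DNA, was at 17 tested regions, with 0 called and 2 of 17 lower at an unadjusted p under 0.05 at 2 h, where 8.85% of all tested two-start regions and 5.68% of all tested regions were lower. The count was 0 under each of the 3 other centrings. These were HELQ/MRPS18C at -0.30 ± 0.12 (adjusted p = 0.312), which pairs a DNA helicase with a small-subunit protein, and MRPL46/MRPS11 at -0.31 ± 0.14 (adjusted p = 0.409), a pair from both ribosomal subunits, in the authors' deposited table. The medians were -0.13, -0.06 and 0.09. The respiratory chain was at 27 tested regions with 0 called, and CEBPZ/NDUFAF7 was the 1 region with an unadjusted p under 0.05, at 18 h against mock. It was lower, where 7.32% of all tested regions were, and the count there was 0 under each of the 3 other centrings. KBTBD4/NDUFS3, with a core subunit of complex I, had -0.15 ± 0.11 at 2 h, and ADPRM/SCO1, with a copper chaperone of cytochrome oxidase, -0.13 ± 0.10 in the authors' deposited table. The respiratory medians were -0.10, 0.00 and 0.09. Aminoacyl-tRNA synthetase genes were at 5 tested regions, and 0 of 5 were called in each comparison. Of the mitochondrial enzymes among them, FARS2/LYRM4 had -0.24 ± 0.14 and EARS2/UBFD1 -0.08 ± 0.08 at 2 h in the authors' deposited table.

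General transcription and RNA polymerase genes were at 16 tested regions with a median of -0.16 at 2 h, 0 called and 4 of 16 lower at an unadjusted p under 0.05, beside the 8.85% of all tested two-start regions and 5.68% of all tested regions. The count was 1 with the median tested region set to 0 and 0 under the other 2 centrings. The 4 were MBLAC2/POLR3G, with a subunit of RNA polymerase III, at -0.24 ± 0.09, BYSL/MED20 at -0.32 ± 0.14, C17orf100/MED31 at -0.27 ± 0.12, and GTF2H5/SERAC1, with a subunit of TFIIH, at -0.29 ± 0.13, in the authors' deposited table. GTF2H5/SERAC1 was named after its value was seen. Their adjusted p ranged from 0.230 to 0.393 (DESeq2). At 18 h the median of this list was -0.07, and from 2 h to 18 h 0.10. Cytosolic ribosomal protein genes were at 11 tested regions, with medians of -0.11, 0.03 and 0.16. At 18 h against 2 h, 3 of 11 were higher at an unadjusted p under 0.05 and 0 were called, where 2.77% of all tested two-start regions and 3.44% of all tested regions were higher. The count was 1 under each of the 3 other centrings. These 3 were LRSAM1/RPL12, MED22/RPL7A at 0.27 ± 0.13 (adjusted p = 0.395) and RPL18/SPHK2 at 0.16 ± 0.08 (adjusted p = 0.429), the last picked after its value was seen, in the authors' deposited table. LIAS/RPL9 had 0.10 ± 0.10 there.

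Chaperone genes were at 11 tested regions, with 0 called and medians of -0.10, 0.01 and 0.07. NIT1/PFDN2, with a subunit of prefoldin, had -0.22 ± 0.10 (adjusted p = 0.421) at 2 h, and DNAJB1/TECR, with a heat shock co-chaperone, 0.16 ± 0.08 (adjusted p = 0.426) from 2 h to 18 h in the authors' deposited table. At an unadjusted p under 0.05 they were the 1 lower region at 2 h and the 1 higher region at 18 h against 2 h. Of all tested regions 5.68% were lower and 3.44% higher in these comparisons. Both counts were 0 under each of the 3 other centrings. Proteasome and ubiquitin genes were at 6 tested regions, with 0 called and a median of -0.03 at 2 h. PDE3B/PSMA1, where PSMA1 is a subunit of the proteasome core, had 0.13 ± 0.21 and PSMD9/RP11-87C12.2 -0.14 ± 0.10 at 2 h in the authors' deposited table. No AP-1 or immediate early gene of the 25 on that list was at a two-start region. Of the 28 genes of the melanocyte list 2 were, PMEL and CDK2, both at 1 region: PMEL, which encodes the fibril protein of melanosomes, shares its region (chr12:55966562-55967063) with the cell cycle kinase gene CDK2, 121 bases away head to head. CDK2/PMEL had -0.35 ± 0.14 (adjusted p = 0.268, DESeq2) at 2 h, -0.22 ± 0.14 at 18 h and 0.14 ± 0.14 between them in the authors' deposited table. It was lower at an unadjusted p under 0.05 at 2 h, as were 8.85% of all tested two-start regions and 5.68% of all tested regions. With the median tested region set to 0 this held. It did not hold within bins of mean signal or with the median single-start region set to 0.

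**Figure D5:**
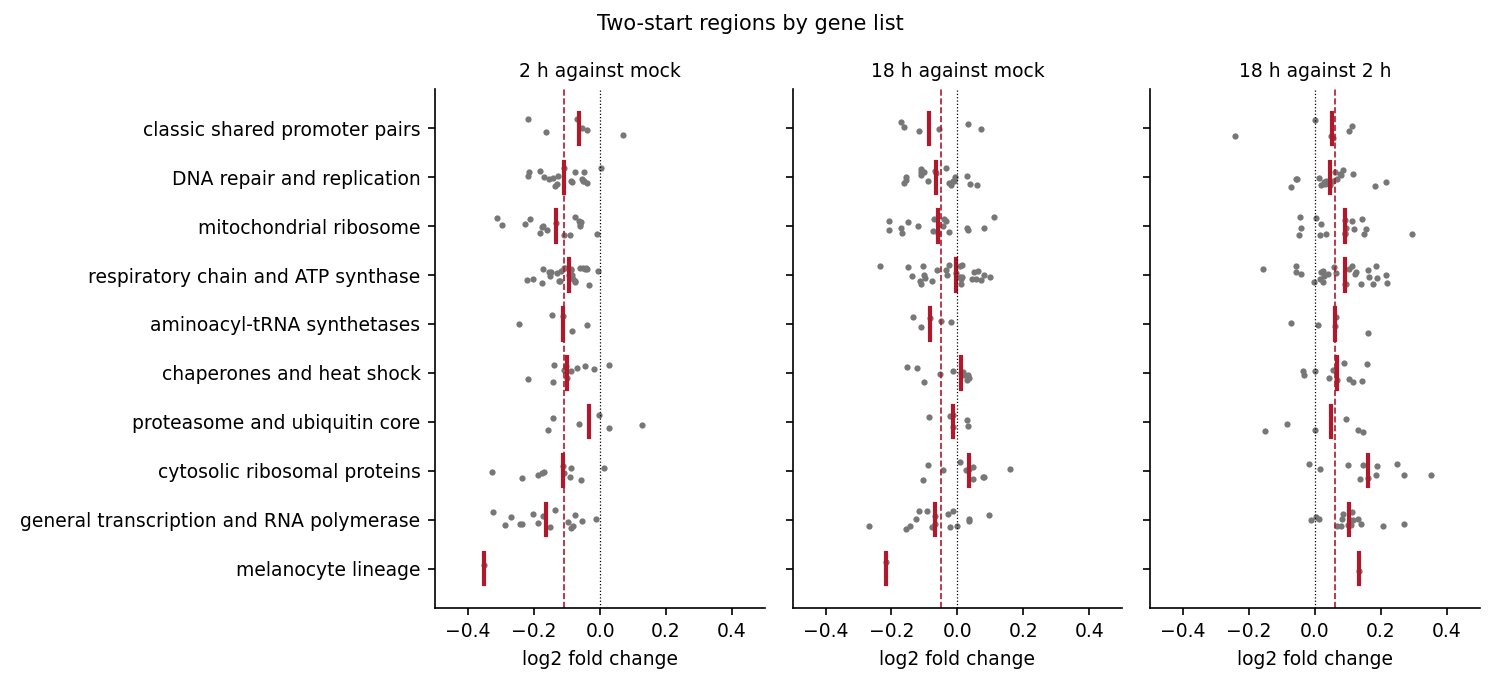
Log2 fold change (x axis) of the tested two-start regions of each gene list (rows; points are regions, spread vertically for sight) in the 3 comparisons, with the list's median as a red bar and the median of all tested two-start regions as a dashed line. The general transcription list has its bar at -0.16 at 2 h and the cytosolic ribosomal list at 0.16 at 18 h against 2 h; melanocyte lineage is 1 region.

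The arrangement of the starts was described by medians, with no test because regions are not replicates. At 2 h the median was -0.11 for 442 head-to-head regions, -0.12 for 54 with starts on the same strand and -0.09 for 14 with overlapping 5′ ends. By the gap between head-to-head starts it was -0.12 for 24 regions with up to 50 bases, -0.12 for 101 with up to 100, -0.10 for 170 with up to 200 and -0.11 for 147 with more. Regions with 2 names had -0.11 and those with 3 names -0.10, among them MED19/TMX2/TMX2-CTNND1 at -0.09 ± 0.08 in the authors' deposited table. Regions with gene symbols only, with a clone or non-coding name and with a readthrough name had -0.11, -0.10 and -0.12. Promoters with and without the ETS core both had -0.11 (225 and 422 regions), the 23 with a TATA box -0.14 and the 624 without -0.11. By GC content the medians were -0.11, -0.10 and -0.12 for promoters of low (up to 62.0%), middle and high GC (from 68.0%).

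The precision sets what these values exclude for single regions. The median SE of a two-start region was 0.11 in each comparison, larger than the SD of 0.08, 0.08 and 0.09 of the log2 fold changes across the regions. The authors' 95% interval lay wholly within 1.5-fold of no change for 739 of 757 regions at 2 h, 743 of 752 at 18 h and 743 of 759 at 18 h against 2 h. It lay within 2-fold for all 757, all 752 and 758, the exception being DPYSL2/PNMA2 (-0.44 ± 0.32, mean signal 56.9, in the authors' deposited table). Within 1.25-fold it lay for 354, 494 and 466 regions. The regions at 2 h whose interval passed 1.5-fold all had a mean signal under 341. A missed threshold does not show that a region did not change, and with 2 libraries a group smaller differences were not detectable.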

How the data were processed

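ATAC-seq libraries of A375 cells (mock, 2 h and 18 h of recombinant HMGA1, 2 each) were grouped by their labels. Per the submitters' processing notes, reads were demultiplexed with bcl2fastq 2.17, the build was hg38 and DESeq2 was used. For the aligner, peak caller, counter and any Tn5 shift, the entry is not given in the sources used here. Used were the authors' 3 tables of pairwise comparisons, and 0 columns hold values of 1 library.

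Mean signal is the authors' deposited average of scaled counts over the 6 libraries. The deposited log2 fold change and its SE, the Wald statistic (a score, by the authors) and the deposited p-value and adjusted p-value were read as they are. The deposited adjusted p is 1 below a limit of mean signal (56.2, 101 and 41.7 in the 3 comparisons), and such regions were treated as not tested. Adjusting the other deposited p-values by Benjamini-Hochberg gave the deposited adjusted p, so adjustment runs over all tested regions. The test planned for read counts was therefore not used.

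With pandas 2.3.3, the numeric suffix of each region was stripped and each region counted once. Two-start regions have distance 0 for at least 2 names. All are 501 bases long. Coordinates are as in the files, on hg38. The files do not state whether they count from 0 or 1, so starts are uncertain by 1 base. Start sites and promoters are from RefSeq (GRCh38.p14). Where a gene has several starts, the one nearest the region's centre was used. Intervals are the estimate plus or minus the 95% normal limit times the SE. Centring was tried on simulated data with the same shift at every region. That trial does not cover a shift that differs with mean signal or kind of region.

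Regions were named by a rule: the smallest p in each direction per comparison, the highest mean signal, textbook pairs, 3-name regions, up to 3 per gene list and the smallest SE. Not every region that met the rule is named. Members, lists and motifs were chosen with earlier results of these data known. Alternatives changed the centring, the low-signal filter, the threshold, the distance limit and the names admitted.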

Additional observations from a re-analysis of the deposited data

How the results depend on the processing

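The number of two-start regions called at an adjusted p under 0.05 (DESeq2) was 0 in each comparison under every centring, without the low-signal filter, at a threshold of 0.01 and for the other ways of admitting names and distances. At a threshold of 0.1 it was 2 at 2 h against mock, 0 at 18 h against mock and 1 at 18 h against 2 h. The shares of all tested regions called, or with an unadjusted p under 0.05, were worked out only for the deposited values at 0.05. The counts under other settings therefore have no such share beside them. Counts at an unadjusted p under 0.05 moved with the centring. At 2 h, 67 lower and 0 higher became 14 and 1 with the median tested region set to 0, 5 and 2 within bins of mean signal, and 1 and 2 with the median single-start region set to 0. At 18 h, 11 lower and 0 higher became 0 and 1, 0 and 1, and 2 and 1. At 18 h against 2 h, 0 lower and 21 higher became 1 and 13, 2 and 4, and 5 and 2. The median log2 fold change changed sign to 0.00343 at 2 h with the median single-start region set to 0, and to 0.0186, 0.0172 and 0.00182 at 18 h under the 3 centrings. The cause was not tested. Admitting names within 100 bases added 47 regions. Setting the median single-start region to 0, and leaving out clone names, were chosen after seeing the data.

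No paired analysis was possible because 0 columns hold values of 1 library. For the same reason the fit with the replicate number as a block and leaving out each library in turn were not run, and depth per library could not be weighed. The 3 comparisons share libraries, and gene names in the files are older than those of RefSeq.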
